A study of Canis lupus familiaris with 2 samples.

Results

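The genes described here encode the enzymes of glycolysis, the PFKFB regulators of glycolytic flux, and enzymes of the pentose phosphate, glycogen and gluconeogenesis branches that share its intermediates. They were picked as a list of 35 gene symbols, of which 33 were found among the 23510 features of the RNA sequencing files, and all 33 exceeded 1 FPKM in each culture. FPKM is a fragment count divided by the length of the exons and by the depth of the library, so genes can be compared within a culture. The list was chosen by role in these pathways but selected on earlier knowledge of the 50-cm to 2-cm FPKM ratios, in which glycolysis genes were lower, so the ratios below are given as a description without a test.

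RNA was sequenced from MDCK cells, an established line of dog kidney origin that forms a columnar epithelium. One group was a culture under medium 2 cm high, and the other a culture under medium 50 cm high, which set a static pressure of 50 cm H2O on the cells. In both, 40000 MDCK cells were plated on a semipermeable insert in EMEM with 10% serum, and the labels place the RNA at day 3. Each group had 1 culture, no value has a replicate, and the medium height, the culture and its library cannot be told apart. In such bulk RNA, fewer cells of a type and less RNA per cell cannot be told apart either.

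Glycolysis splits glucose into pyruvate, and lactate dehydrogenase then reduces pyruvate to lactate. The phosphofructokinase step is adjusted by fructose 2,6-bisphosphate, which the PFKFB enzymes make and degrade. Glucose 6-phosphate can instead enter the pentose phosphate pathway, which yields NADPH and ribose 5-phosphate, or be stored as glycogen. Tubule cells of the kidney differ in their use of these routes, with the proximal tubule known for gluconeogenesis and the distal segments for glycolysis, and cell lines in culture are commonly glycolytic.

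Of the 33 genes, most of those of glycolysis were lower in 50-cm-high medium and most of those of the pentose phosphate pathway were not. The other genes of these 2 pathways counted further on did not show this difference, but they lie outside the glycolytic and pentose phosphate steps summed below. Of the 33 genes, 23 had a ratio of 50-cm to 2-cm FPKM below 1 and 10 had a ratio above 1. Of the 11057 features above 1 FPKM in both cultures, 47.4% lay below 1 and 52.6% above it. The median log2 ratio was -0.15 over the 33 genes and 0.01 over all those features. By branch it was -0.24 for the 18 glycolysis genes, -0.38 for the 3 PFKFB genes, 0.09 for the 5 pentose phosphate genes, -0.05 for the 5 glycogen genes and -0.10 for the 2 gluconeogenesis genes. In the glycolysis branch 14 of 18 genes lay below 1, in the PFKFB branch 3 of 3, in the pentose phosphate branch 1 of 5 and in the glycogen branch 4 of 5.

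Levels ran over 3 orders of magnitude among the 33 genes, from 1.48 FPKM for *FBP1* to 3808 FPKM for *GAPDH* at a medium height of 2 cm, and from 1.28 to 3598 FPKM for the same genes at 50 cm. *GAPDH* had rank 8 of all features counted in 2-cm-high medium, and 14 of the 33 genes were above 100 FPKM in both cultures. How many reads each library holds is unknown. Ratio steps among 574 features below 0.1 FPKM put the worth of 1 read 9.77% higher in the 50-cm-high-medium culture. None of the 33 ratios lay within 0.05% of a step made by 10 or fewer reads per culture. The 33 genes all lie above the range where the steps were seen, so this does not give the number of reads behind any ratio.

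**Figure D1:**
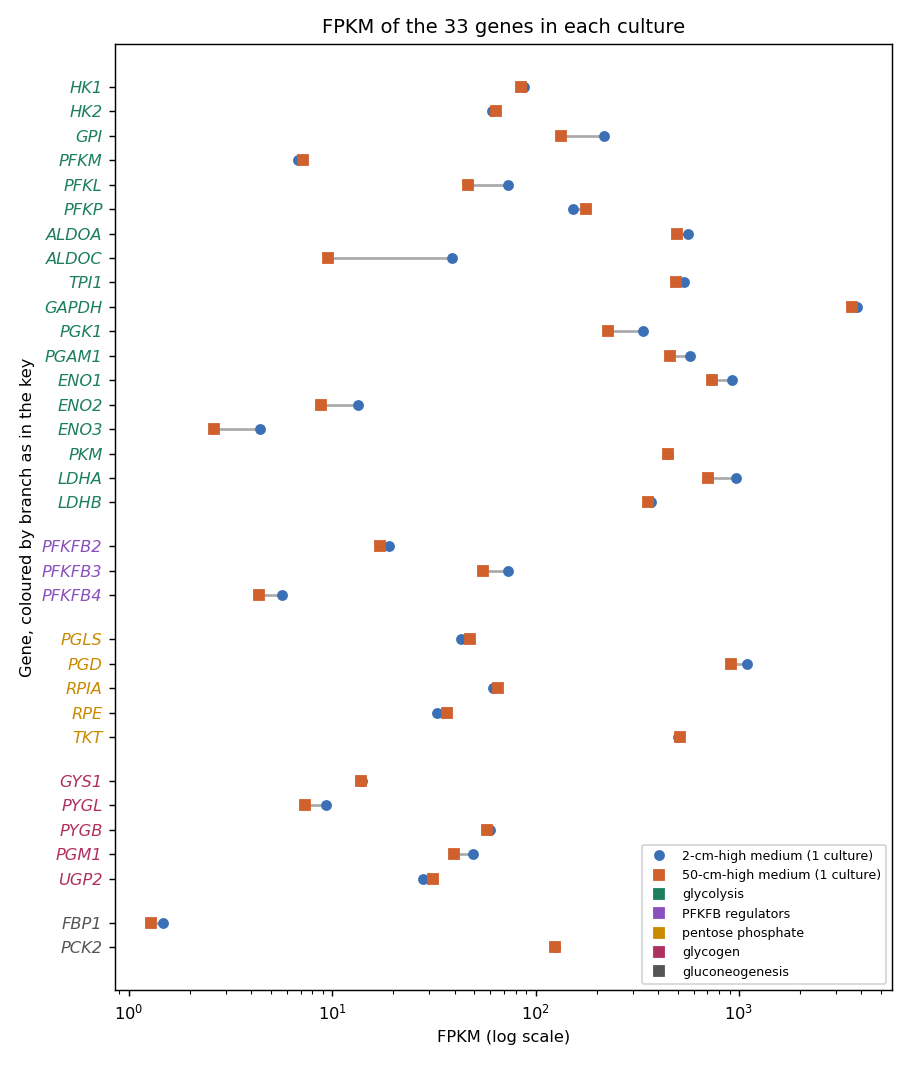
FPKM (log axis) of the 33 genes in the 2-cm-high-medium culture (circles) and the 50-cm-high-medium culture (squares), with gene names coloured by branch; each symbol is 1 culture and the grey line joins the cultures. *ALDOC* shows the widest gap, from 38.8 to 9.57 FPKM, whereas *PKM*, *TKT*, *GYS1* and *PCK2* nearly coincide.

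Only *ALDOC* was past the 2-fold limit that the study used, where 1.28% of all features were more than 2-fold lower and 0.389% more than 2-fold higher. These are 142 and 43 features, and after quantile normalization they were 98 and 61. Past a limit of 1.5-fold, 5 of the 33 genes were lower (15.2%) and 0 higher, where 5.06% of all features were lower and 2.13% higher (559 and 236 features, or 409 and 310 after quantile normalization). With a minimum of 0.1 FPKM in place of 1, which leaves the 33 genes as they are, 9.83% of 13280 features were more than 1.5-fold lower and 4.47% higher. The genes past 1.5-fold were *ALDOC*, *ENO3*, *GPI*, *PFKL* and *ENO2*, all of the glycolysis branch. Just inside this limit, a ratio of 0.667, lay *ENO2* at 0.661, and just outside it lay *PGK1* at 0.671.

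Since weakly expressed genes spread more, each gene was also set beside the 500 features nearest to it in mean log2 FPKM, which gives a spread across genes and not replicate error. The log2 ratio of 9 of the 33 genes (27.3%) lay below the 5th percentile of those features and 0 above the 95th, while 5.11% of all features lay below their own 5th percentile and 5.21% above their own 95th. These 9 genes were *GPI*, *PFKL*, *ALDOC*, *PGK1*, *PGAM1*, *ENO1*, *ENO2*, *LDHA* and *PFKFB3*. *ENO3* had a lower ratio than most of them and still lay inside, because features near its level ran from -0.94 to 0.48 between these percentiles.

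**Figure D2:**
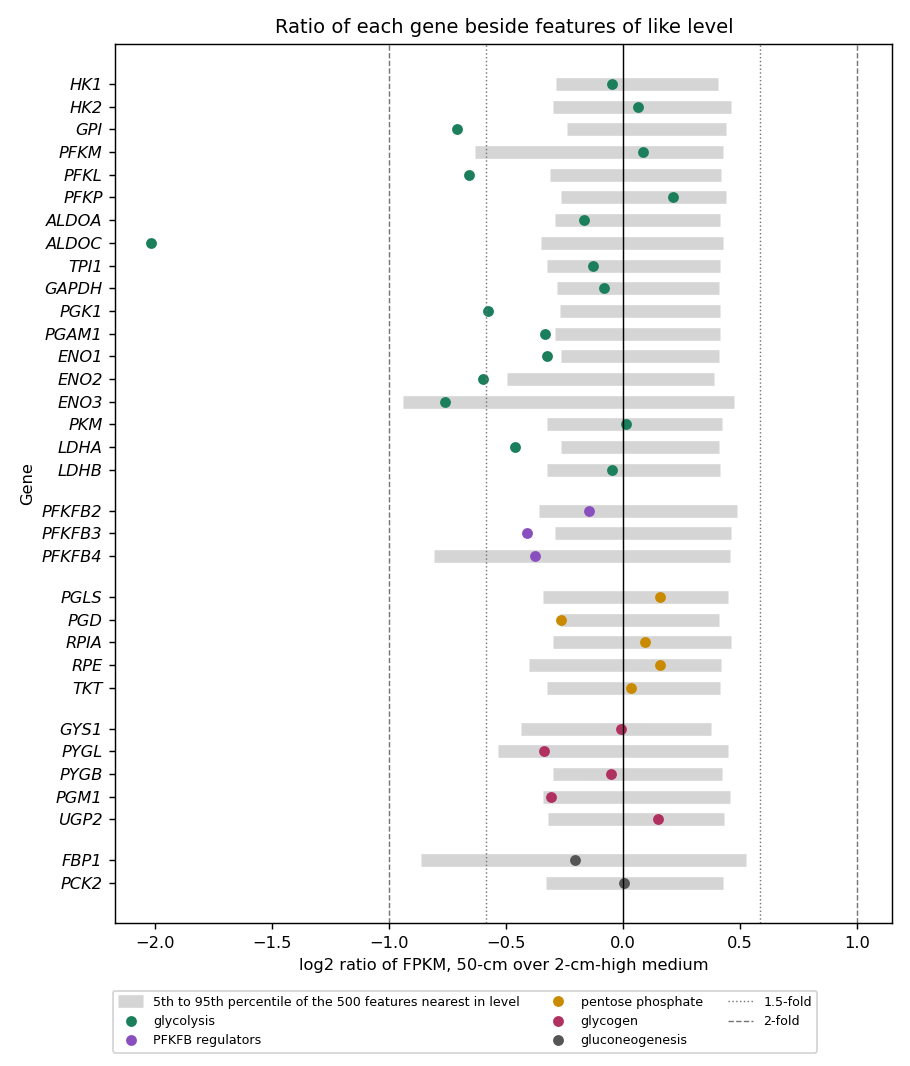
Log2 of the FPKM ratio, 50 cm to 2 cm, for each of the 33 genes (points, coloured by branch; 1 culture per height) over the 5th to 95th percentile of the 500 features nearest in level (grey bars), with the 1.5-fold and 2-fold limits dotted and dashed. The points left of their bars are 8 glycolysis genes and *PFKFB3*, and no point lies right of its bar.

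Hexokinase, which phosphorylates glucose on entry, showed little difference. *HK1*, the form found in most tissues, had 87.2 FPKM in 2-cm-high medium (2 cm) and 84.3 FPKM under the pressure load (50 cm), a ratio of 0.967. *HK2*, the inducible form, had 61.3 and 63.99 FPKM, a ratio of 1.04. The summed FPKM of the hexokinase genes was 148.8 and 148.5, and *HK3* (0.225 and 0.133 FPKM) and *HKDC1* (0.0376 and 0.0206 FPKM) added almost nothing to it.

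*GPI*, which encodes the isomerase that turns glucose 6-phosphate into fructose 6-phosphate, went from 217.5 to 133.1 FPKM, a ratio of 0.612 and a log2 ratio of -0.71. It has no paralog in the list, so the step as a whole was 1.64-fold lower, the lowest of the 11 glycolytic steps. Of the 500 features nearest in level, 7 had a lower ratio.

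Phosphofructokinase, the committed step, combined opposite differences. *PFKL*, the liver-type subunit, was at 73.1 FPKM at 2 cm and 46.3 FPKM at 50 cm, a ratio of 0.634. *PFKP*, the platelet-type subunit, was at 153 and 178 FPKM, a ratio of 1.16 and the highest ratio of the 33 genes. *PFKM*, the muscle-type subunit, stayed near 7 FPKM, with 6.80 and 7.21. The 3 subunit genes together gave 232.98 and 231.1 FPKM, so that the sum hardly differed while the share of *PFKL* went from 31.4% to 20.0% and that of *PFKP* from 65.7% to 76.8%. The level of *PFKL* relative to *PFKP* was 0.477 at 2 cm and 0.261 at 50 cm.

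Aldolase cleaves fructose 1,6-bisphosphate, and 1 of its genes, *ALDOC*, had the lowest ratio of the 33 genes. *ALDOC*, the brain-type form, was at 38.8 FPKM at 2 cm and 9.57 FPKM at 50 cm, 4.05-fold lower, with a log2 ratio of -2.02. Among the 500 features nearest in level 0 had a lower ratio. *ALDOA*, the form of muscle and most cultured cells, was at 559 and 498 FPKM, a ratio of 0.892. Because *ALDOA* made up most of the step, the summed aldolase FPKM had a ratio of 0.850, and the share of *ALDOC* in it went from 6.49% to 1.88%.

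The triose steps before phosphoglycerate kinase were near their 2-cm values. *TPI1*, which interconverts the triose phosphates, had 537 and 492 FPKM (ratio 0.916). *GAPDH*, which forms 1,3-bisphosphoglycerate and is widely used as a loading reference, had 3808 and 3598 FPKM (ratio 0.945). On the FPKM scale that small ratio was still a difference of -209.7, because *GAPDH* alone held 41.5% of the summed glycolysis FPKM in 2-cm-high medium.

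The following steps were all lower. *PGK1*, the first ATP-yielding enzyme, was at 337 FPKM at 2 cm and 226 FPKM at 50 cm, a ratio of 0.671. *PGAM1*, the mutase that moves the phosphate group, was at 577 and 458 FPKM, a ratio of 0.794. *ENO1*, the common enolase, was at 927 and 740 FPKM, a ratio of 0.799. Each of the 3 lay below the 5th percentile of features of like level.

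The minor enolases were lower as well. *ENO2*, the neuronal form, was at 13.4 and 8.86 FPKM, and *ENO3*, the muscle form, at 4.43 and 2.61 FPKM, with ratios of 0.661 and 0.590. Neither reached 2% of the summed enolase FPKM in either culture, so the ratio of that sum, 0.796, followed *ENO1*.

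*PKM*, the pyruvate kinase of most tissues, did not share in the lower values, with 446 FPKM at 2 cm and 450 FPKM at 50 cm (ratio 1.01). It was the only step of glycolysis whose summed FPKM was above its 2-cm value, and under 3 of the 4 other scalings tried that ratio fell below 1. The liver and red cell paralog *PKLR* had 0.325 and 0.290 FPKM. Gene-level FPKM does not separate the M1 and M2 transcripts of *PKM*.

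The lactate dehydrogenase subunits parted. *LDHA*, the muscle-type subunit, was at 965 FPKM at 2 cm and 701 FPKM at 50 cm, a ratio of 0.727. *LDHB*, the heart-type subunit, was at 369 and 357 FPKM, a ratio of 0.967. The share of *LDHA* in their sum went from 72.3% to 66.3%, and *LDHA* exceeded *LDHB* 2.61-fold at 2 cm and 1.97-fold at 50 cm. *LDHC*, the testis form, was listed at 0 FPKM in both.

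**Figure D3:**
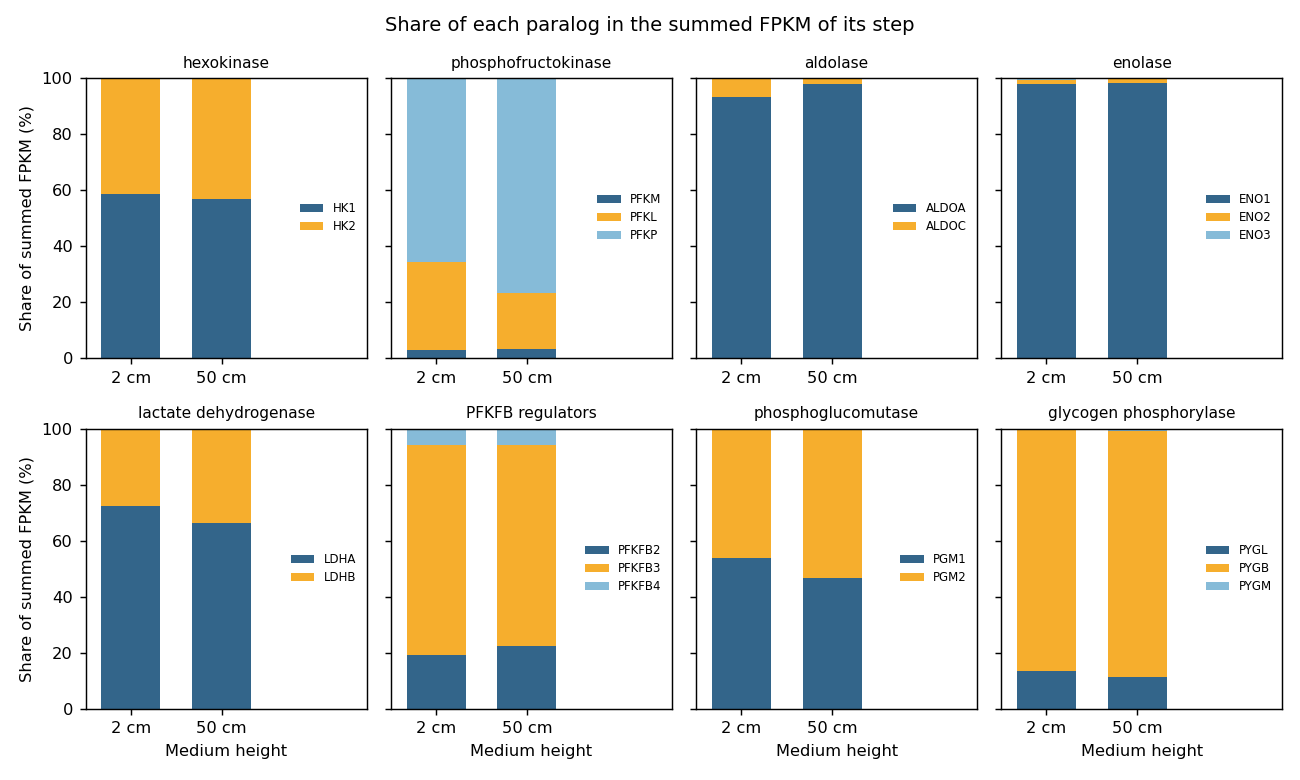
Share (%) of each paralog in the summed FPKM of its enzymatic step, at medium heights of 2 and 50 cm (1 culture each; paralogs under 0.3% in both cultures are left out). The share of *PFKL* is 31.4% and 20.0%, that of *ALDOC* 6.49% and 1.88%, that of *LDHA* 72.3% and 66.3% and that of *PGM1* 54.0% and 46.7%. The share of *PGM1* is of its sum with *PGM2*, which is also counted among the other pentose phosphate genes. The hexokinase, enolase and phosphorylase shares differ by under 3 percentage points.

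Summed by step, 10 of the 11 glycolytic steps were lower in 50-cm-high medium, with ratios from 0.612 at *GPI* to 1.01 at pyruvate kinase. The hexokinase and phosphofructokinase sums lay nearest to 1, with ratios of 0.998 and 0.992, and pyruvate kinase was the third such step. These 3 steps are the ones held to be irreversible in the cell, a grouping made after the values were seen, and after quantile normalization the log2 ratios of phosphofructokinase and glyceraldehyde-3-phosphate dehydrogenase were both -0.08. The steps with ratios below 0.8 were those of *GPI*, *PGK1*, *PGAM1*, enolase and lactate dehydrogenase.

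**Figure D4:**
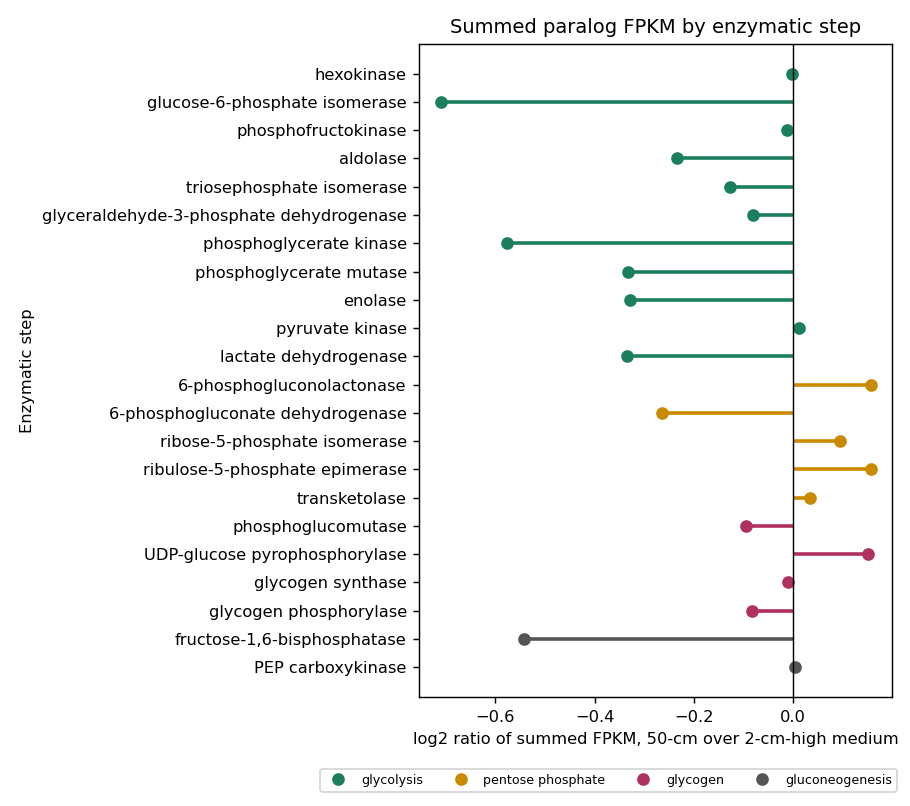
The log2 ratio of summed paralog FPKM, 50-cm over 2-cm-high medium, for enzymatic steps in pathway order (1 culture per height, PFKFB regulators left out). Transaldolase (log2 ratio -0.11) and the glycogen branching enzyme (0.20), matched by gene number only, are not drawn. Glycolytic steps lie at or left of 0 except pyruvate kinase at 0.01. The pentose phosphate steps drawn lie right of 0 except 6-phosphogluconate dehydrogenase at -0.26. Pyruvate kinase falls below 0 under 3 of 4 other scalings and transketolase under 1. The fructose-1,6-bisphosphatase step, at -0.54, rests on sums of only 5.47 and 3.76 FPKM.

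The 18 glycolysis genes together held 9180 FPKM at 2 cm and 8055 FPKM at 50 cm, or 1.53% and 1.31% of all FPKM. Without *GAPDH* the sum was 5372 and 4456 FPKM, a ratio of 0.829. Of the summed difference, *LDHA* made up 23.4%, *GAPDH* 18.6%, *ENO1* 16.6%, *PGAM1* 10.5% and *PGK1* 9.85%. *ALDOC*, with the lowest ratio, made up 2.59% of it.

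The 3 PFKFB genes encode enzymes with both a kinase and a phosphatase activity toward fructose 2,6-bisphosphate. *PFKFB3*, the form with the strongest kinase bias, was at 73.4 FPKM at 2 cm and 55.2 FPKM at 50 cm, a ratio of 0.752. *PFKFB4* was at 5.70 and 4.39 FPKM (ratio 0.771), and *PFKFB2*, the heart-type form, at 19.01 and 17.2 FPKM (ratio 0.904). All were lower, but only *PFKFB3* lay below the 5th percentile of features of like level. *PFKFB3* made up 74.8% of their sum at 2 cm and 71.9% at 50 cm, so their order did not differ. *PFKFB1* was listed at 0 FPKM in both cultures.

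Of the 5 pentose phosphate genes matched by symbol, *PGD* stood apart from the others. *PGD*, the 6-phosphogluconate dehydrogenase which yields NADPH, was at 1092 FPKM at 2 cm and 909 FPKM at 50 cm, a ratio of 0.833. Its log2 ratio of -0.26 lay just above the 5th percentile of like features, -0.27. The lactonase gene *PGLS*, which acts just before *PGD*, was at 42.9 and 47.8 FPKM, a ratio of 1.11.

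Of the genes that interconvert the sugar phosphates without oxidation, *RPIA*, *RPE* and *TKT* were slightly above their 2-cm values and transaldolase was below its own. *TKT* fell to a log2 ratio of -0.01 when the upper quartiles were made equal. *RPIA*, the ribose 5-phosphate isomerase, had 61.5 and 65.6 FPKM (ratio 1.07), and *RPE*, the epimerase, had 32.8 and 36.6 FPKM (ratio 1.11). *TKT*, transketolase, which links the pathway back to glycolysis, had 499 and 511 FPKM (ratio 1.02). None of these ratios reached the 95th percentile of features of like level. The symbol *TALDO1*, transaldolase, was not matched, but by gene number in the RefSeq table the feature LOC100855463 carries that name, and it had 239.9 and 222.2 FPKM (ratio 0.927).

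Among the glycogen genes, differences were small and mixed. *PYGL*, the liver-type phosphorylase that releases glucose 1-phosphate, was at 9.33 and 7.38 FPKM (ratio 0.791), and *PYGB*, the brain-type form, at 59.7 and 57.6 FPKM (ratio 0.965). *PGM1*, the phosphoglucomutase that joins glycogen to glycolysis, was at 48.97 and 39.6 FPKM, a ratio of 0.809. *PGM2*, which is counted below among the other pentose phosphate genes, was summed with *PGM1* as phosphoglucomutase. It was at 41.7 and 45.2 FPKM (ratio 1.08), and the sum had a ratio of 0.936, which does not describe *PGM1* alone. All of them lay within the 5th to 95th percentile of like features.

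On the synthesis side, *GYS1*, the non-hepatic glycogen synthase, was at 14.0 and 13.9 FPKM (ratio 0.993). *UGP2*, which makes the UDP-glucose that the synthase uses, was at 28.1 and 31.2 FPKM (ratio 1.11). *GBE1*, the branching enzyme, was not matched by symbol, but the feature LOC478380, which bears its gene number, had 13.3 and 15.3 FPKM (ratio 1.15). These ratios lay within the 5th to 95th percentile of features of like level. *GYS2*, the liver synthase, was listed at 0 FPKM in both cultures.

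For gluconeogenesis, *PCK2*, the mitochondrial PEP carboxykinase, was at 124.6 and 124.9 FPKM, a ratio of 1.003. *FBP1*, the fructose-1,6-bisphosphatase of liver and kidney, was at 1.48 and 1.28 FPKM (ratio 0.867), close to the minimum of 1 FPKM. Summed with *FBP2*, which made up 73.0% of the step at 2 cm and 66.0% at 50 cm, it gave 5.47 and 3.76 FPKM. The ratio of this weakly expressed sum was 0.687. The cytosolic *PCK1*, a proximal tubule enzyme, had only 0.279 and 0.215 FPKM, and *G6PC*, the glucose-6-phosphatase of liver and kidney, was listed at 0 FPKM in both cultures.

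Beside these 33 genes, a further 63 genes of the same pathways were listed and are reported here, of which 55 were in the files and 30 exceeded 1 FPKM in each culture. Of the 30 genes, 18 had a ratio below 1 (60%, and 47.4% of all features), and the median log2 ratio of the 30 was -0.15. More than 1.5-fold lower were 3 (10%, and 5.06% of all features), 0 were more than 1.5-fold higher (2.13%) and 0 past 2-fold. Below the 5th percentile of features of like level lay 6 (20%, and 5.11% of all features), and 0 lay above the 95th (5.21%). The 6 were *H6PD*, *DERA*, *RBKS*, *PPP1R3C*, *GAA* and *SLC37A4*. By pathway the counts ran otherwise than among the 33 genes. Of the other glycolysis genes (*ADPGK*, *BPGM*, *GCKR*, *TIGAR* and *MINPP1*) 2 of 5 had a ratio below 1, with a median log2 ratio of 0.13. None of these 5 is part of the 11 glycolytic steps, so they are no check on the enzymes of those steps. Of the other pentose phosphate genes 4 of 7 did, with a median of -0.17, and 3 of them, *H6PD*, *DERA* and *RBKS*, lay below the 5th percentile of features of like level. These counts are small, and with genes not reported here left out they describe the listed genes only. Of the other glycogen genes 8 of 12 had a ratio below 1 and of the other gluconeogenesis genes 4 of 6, with medians of -0.25 and -0.10.

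Of the other glycolysis genes, *TIGAR*, a fructose 2,6-bisphosphatase listed in the files under C27H12orf5, was the highest at 29.3 and 36.6 FPKM (ratio 1.25), and *BPGM*, the bisphosphoglycerate mutase, the lowest at 3.99 and 3.12 FPKM (ratio 0.782). Of the other pentose phosphate genes, *H6PD*, whose enzyme lies in the endoplasmic reticulum, was at 12.3 and 8.08 FPKM (ratio 0.657), and *PRPS1*, which makes phosphoribosyl pyrophosphate, at 49.6 and 60.0 FPKM (ratio 1.21). *DERA*, which cleaves deoxyribose 5-phosphate, was at 18.2 and 12.9 FPKM (ratio 0.711), and *RBKS*, ribokinase, at 24.4 and 18.998 FPKM (ratio 0.778).

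Of the other glycogen genes, *PPP1R3C*, which targets a phosphatase to glycogen, was the lowest at 32.8 and 22.3 FPKM (ratio 0.679), and *GYG1*, glycogenin, the highest at 19.2 and 21.0 FPKM (ratio 1.09). Of the other gluconeogenesis genes, *SLC37A4*, the glucose 6-phosphate transporter, was the lowest at 14.6 and 8.47 FPKM (ratio 0.582), and *GOT1*, an aspartate aminotransferase, the highest at 36.8 and 44.6 FPKM (ratio 1.21). *FBP2*, the muscle paralog of *FBP1*, was at 3.998 and 2.48 FPKM (ratio 0.620).

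At the entry and exit of the pathway, 24 genes of glucose and lactate transport and of pyruvate entry into the mitochondrion were listed, and 18 were above 1 FPKM in both cultures. Of the 18, 12 had a ratio below 1 (66.7%, and 47.4% of all features), with a median log2 ratio of -0.13. More than 1.5-fold lower were 3 (16.7%, and 5.06% of all features) and 0 were higher (2.13%). Below the 5th percentile of features of like level lay 4 (22.2%, and 5.11% of all features). More than 2-fold lower, as were 1.28% of all features, were *PDK1* and *SLC16A3*. *PDK1*, a kinase that inhibits pyruvate dehydrogenase, was at 46.3 and 17.1 FPKM (ratio 0.369). *SLC16A3*, the lactate exporter MCT4, was at 30.4 and 12.7 FPKM (ratio 0.419). *PDK3*, a further pyruvate dehydrogenase kinase, was the other gene past 1.5-fold, at 34.3 and 22.3 FPKM. *SLC2A1*, the glucose transporter GLUT1, had 343 and 263 FPKM (ratio 0.766). Nearer to a ratio of 1 were *SLC16A1*, the lactate transporter MCT1, at 36.8 and 39.97 FPKM and *PDHA1*, a pyruvate dehydrogenase subunit, at 151 and 164 FPKM. *PDK2*, at 110.6 and 102.3 FPKM, was slightly lower (ratio 0.925).

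**Figure D5:**
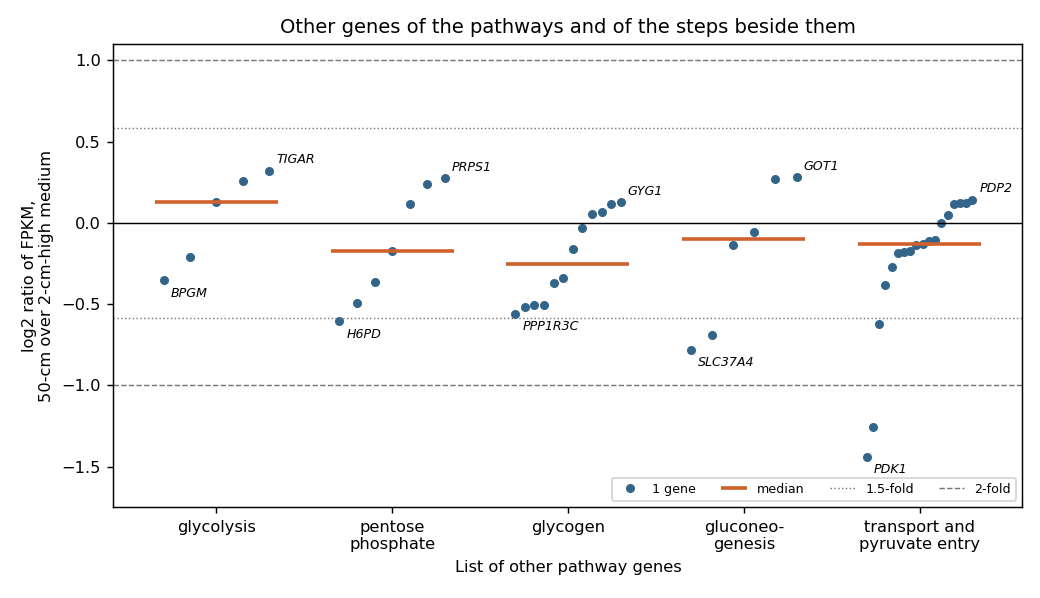
Log2 of the FPKM ratio, 50 cm to 2 cm, of the other pathway genes above 1 FPKM in both cultures, by list, with list medians as bars, the lowest and highest gene of each list named, and the 1.5-fold and 2-fold limits dotted and dashed (1 culture per height). No gene lies above the upper 1.5-fold limit, and only *PDK1* and *SLC16A3* lie below the lower 2-fold limit.

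The labelled cell type was checked by marker genes. Of 9 kidney epithelial markers 8 were above 1 FPKM in both cultures, with *KRT8* at 1641 and 1561 FPKM, although *CDH16* had only 1.96 and 0.676 FPKM and *CLDN2* had a ratio of 0.485. The fibroblast, endothelial, leukocyte and neuron markers found in the files all lay below 0.3 FPKM, with *PTPRC*, *PECAM1* and *DCN* at 0 in both cultures. Of 6 skeletal muscle markers, *MYH1*, *MYH2*, *CKM* and *MYOD1* were at 0 in both cultures, *DES* was at 0.0557 and 0 FPKM, and *ACTA1* was at 21.5 and 29.1 FPKM. The muscle-type forms *PFKM* and *ENO3* thus stood beside muscle markers that were at or near 0 except *ACTA1*. The epithelial sum went from 3679 to 3474 FPKM and the muscle sum, nearly all *ACTA1*, from 21.6 to 29.1 FPKM, and their part in the ratios above was not tested.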

How the data were processed

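Total RNA of MDCK cells was sequenced from 1 culture for each medium height, 2 and 50 cm. The authors made stranded mRNA libraries, aligned the single-end reads (TopHat2 2.0.13, which calls Bowtie2 2.2.3, with SAMtools 0.1.19 and the CanFam3.1 build), and deposited FPKM values that Cuffnorm 2.2.1 produced. The gene annotation, the library scaling and the treatment of reads that match several places are not given in the sources used here. Genes with near-identical processed copies, as *GAPDH*, *PGK1*, *LDHA*, *ENO1*, *PGAM1* and *TPI1* have in mammals, are therefore less certain.

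For each feature above 1 FPKM in both cultures, the minimum that the study states, the 50-cm FPKM was divided by the 2-cm FPKM with no pseudocount, with limits of 2-fold and 1.5-fold. With 1 culture per group no test was possible. Paralog FPKM values were summed by enzymatic step. Alternatives were 4 minima, 2 pseudocounts and 4 scalings. The genes, the lists and the limits were chosen with earlier results of these data known. Named were all members found and, of the other listed genes, those past 2-fold or else the extremes of their list, and the weakly expressed paralogs of a step. *G6PC*, *FBP2*, *DERA*, *RBKS*, *PGM2*, *GAA*, *PDK3*, *SLC2A1*, *SLC16A1*, *PDHA1* and *PDK2* were named for context after their values were seen. Scripts (Python 3.11.15, numpy 2.4.6, pandas 2.3.3, matplotlib 3.10.9) were tested on simulated data. Names of LOC features came from a RefSeq gene table of the assembly UU_Cfam_GSD_1.0, in which the symbols of all 33 genes were found. A few listed genes outside the 33 are not reported here. Protein and promoter sequences of these genes were not used here.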

Additional observations from a re-analysis of the deposited data

How the results depend on the processing

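Under the 10 alternatives the count of genes past 2-fold stayed at 1, that past 1.5-fold ran from 4 to 6. The count below a ratio of 1 ran from 23 to 26 where all 33 genes were kept. It was 20 with the minimum of 5 FPKM, which left out *ENO3*, *PFKFB4* and *FBP1*, all of them lower. The median log2 ratio ran from -0.19 to -0.10 over all the genes and from -0.29 to -0.17 over the glycolysis genes. The upper end of both ranges belonged to that minimum of 5 FPKM. *ENO2* left the 1.5-fold limit with a pseudocount of 1 (log2 ratio -0.55) and after quantile normalization (-0.57), and *PGK1* passed it under all 4 scalings (-0.59 to -0.64). The ratio of 6 genes near 1 (*HK2*, *PKM*, *TKT*, *GYS1*, *FBP1* and *PCK2*) met or crossed 1 under some alternative, for *PKM* under 3 and for *PCK2* under 4. The gluconeogenesis median, of 2 genes, ran from -0.14 to -0.02, and it was 0.004 with the minimum of 5 FPKM, which left *PCK2* alone. No scaling moved the median of all features by more than 0.1 (range -0.03 to 0.01). Over all features the count past 2-fold was 185, and it became 62 when both cultures had to exceed 5 FPKM, 730 when they had to exceed 0.1 FPKM and 1216 for all nonzero pairs. The share more than 1.5-fold lower was 2.25% above 5 FPKM, 9.83% above 0.1 FPKM and 11.97% for all nonzero pairs. No paired analysis was possible because each group has 1 culture, and without read counts the counting error of a single ratio is unknown.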
